A study of Mus musculus with 5 samples.

Results

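The 10 genes described here, H19, Igf2, Dlk1, Peg3, Meg3, Cdkn1c, Plagl1, Mest, Grb10 and Igf2r, are imprinted genes that act on growth. They were taken by exact symbol from the 42454 features of single-cell RNA sequencing of mouse lung. All 10 had at least 1 count in both unsorted libraries at pnd7, 9 in the sorted library and 8 in each library at pnd60. The study asked how exposure of newborn mice to hyperoxia affects lung cells during alveolarization and in adulthood.

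There were 5 libraries, each the only one of its group. C57BL/6J pups less than 12 h old were kept in room air or in hyperoxia (>95% O2) for 3 days and then in room air until postnatal day (pnd) 7 or 60, which gave the groups air pnd7, hyperoxia pnd7, air pnd60 and hyperoxia pnd60. The fifth library, C12FDG sorted pnd7, held cells from the pooled lungs of 3 hyperoxia-exposed mice, sorted for bright staining with C12FDG, a fluorescent substrate of β-galactosidase used as a mark of senescent cells. The number of mice behind each unsorted library and the sex of the mice were not given in the sources used here. With 1 library per group no difference has a replicate check, so no p-value is given, and every interval below is a 95% interval for counting error only.

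After the study's filter (more than 700 and fewer than 8000 genes, under 5% mitochondrial counts) the libraries held 2308, 1246, 493, 4397 and 4756 cells in air pnd7, hyperoxia pnd7, the sorted library, air pnd60 and hyperoxia pnd60, and 7880365 to 16648251 UMI counts. A level is the summed UMI counts of a gene scaled to counts per 1e6 counts of the same cells (CPM). Median counts per cell ranged from 2168 in air pnd60 to 15529 in the sorted library, and any pair of libraries shared 0 to 4 cell barcodes. Cells were clustered within each library without the 10 genes, and clusters were named by fixed markers. A name ending in "-like" means such clusters. Lymphocyte-like cells were 12.9% and 10.9% of cells at pnd7 in air and hyperoxia and 43.6% and 43.5% at pnd60, and mesenchymal-like cells 16.7% and 21.3% against 8.19% and 8.24%. Unnamed clusters held 42.9% of cells in air pnd7, 18.2% in hyperoxia pnd7 and 23.5% in the sorted library. They held 12.9% in air pnd60 and 1.2% in hyperoxia pnd60. In whole libraries, fewer cells of a type and less RNA per cell cannot be told apart.

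Imprinted genes are transcribed from a single parental copy, which is chosen by DNA methylation laid down in the egg or the sperm. Many of them act on growth before and shortly after birth, and a number of them are known to decline together in several organs as growth slows. In general the copies active on the paternal chromosome (Igf2, Peg3, Mest, Plagl1, Dlk1) favour growth or the allocation of resources to the young, and several active on the maternal chromosome (H19, Cdkn1c, Grb10, Igf2r) restrain it. The mice were of 1 inbred strain, so the parental origin of a transcript was not measured.

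The genes lie in a few imprinted clusters (GRCm38, gene bodies in the GENCODE annotation). H19, a long noncoding RNA, lies at chr7:142575529-142578143 (minus strand), beside Igf2 at chr7:142650766-142666816 (minus strand) and near Cdkn1c at chr7:143458339-143461050 (minus strand). Dlk1 at chr12:109452823-109463336 (plus strand) neighbours the noncoding Meg3 at chr12:109541001-109571726 (plus strand). The others lie apart, Peg3 at chr7:6703892-6730431 (minus strand), Mest at chr6:30723547-30748465 (plus strand), Plagl1 at chr10:13060504-13131694 (plus strand), Grb10 at chr11:11930508-12038683 (minus strand) and Igf2r at chr17:12682406-12769664 (minus strand).

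RefSeq promoter windows (GRCm38.p6, 250 bases before to 50 after a transcript start) were available for 8 of the 10 genes, in 15 windows, and not for H19 and Cdkn1c. They were searched on both strands for TGCCGC, the hexamer that the zinc-finger protein ZFP57 binds when methylated to maintain imprints. The hexamer was in 6 of the 15 windows, of 5 genes (Igf2, Mest, Plagl1, Grb10 and Meg3), and in 11.6% of all 32851 windows. The hexamer holds a CpG, and the median CpG count was 13 in the 15 windows and 7 in all windows. A match is only a description of the letters. Peg3, whose windows had no match, was at least 2-fold lower at pnd60 than at pnd7 in all cells. So were H19 and Cdkn1c, which had no window. Igf2r, also without a match, was not, and Dlk1 had few counts. Of the 5 genes with a match, Meg3 had few counts, and the other 4 were at least 2-fold lower at pnd60 than at pnd7 in all cells. Among all genes with enough counts, 9.35% in air and 9.49% in hyperoxia were lower to that extent. As examples from those 4, 1 window each of Mest, Plagl1 and Grb10 is shown 5′ to 3′ with the matches in capitals, here always as the reverse complement GCGGCA.
Mest, chr6:30737800-30738099, plus strand: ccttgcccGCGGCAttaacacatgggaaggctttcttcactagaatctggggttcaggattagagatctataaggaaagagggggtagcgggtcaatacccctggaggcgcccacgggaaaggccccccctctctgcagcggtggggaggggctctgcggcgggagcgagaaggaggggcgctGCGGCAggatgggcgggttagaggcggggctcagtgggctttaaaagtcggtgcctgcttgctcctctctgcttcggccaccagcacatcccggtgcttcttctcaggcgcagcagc
Plagl1, chr10:13090582-13090881, plus strand: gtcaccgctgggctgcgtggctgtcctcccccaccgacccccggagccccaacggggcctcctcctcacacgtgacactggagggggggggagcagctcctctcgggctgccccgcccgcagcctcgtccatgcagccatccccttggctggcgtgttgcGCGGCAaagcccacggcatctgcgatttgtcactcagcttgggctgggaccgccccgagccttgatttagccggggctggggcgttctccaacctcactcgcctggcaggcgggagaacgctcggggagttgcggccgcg
Grb10, chr11:12037371-12037670, minus strand: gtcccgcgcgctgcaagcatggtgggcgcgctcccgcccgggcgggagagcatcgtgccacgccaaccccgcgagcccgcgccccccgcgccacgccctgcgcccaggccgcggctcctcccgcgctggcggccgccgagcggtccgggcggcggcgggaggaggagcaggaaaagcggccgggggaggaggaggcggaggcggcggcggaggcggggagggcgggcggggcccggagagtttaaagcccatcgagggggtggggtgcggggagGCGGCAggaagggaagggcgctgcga

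H19, Mest and Igf2 also carry microRNAs within their gene bodies, at chr7:142577112-142577133 (minus strand), chr6:30741314-30741336 (plus strand) and chr7:142654932-142654952 (minus strand). Their mature RefSeq sequences are given with the seed, bases 2 to 8, in capitals, since the transcripts counted here are their hosts. The microRNAs themselves were not measured by this assay, and the 3 seeds differ.
mmu-miR-675-5p: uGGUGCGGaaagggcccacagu
mmu-miR-335-5p: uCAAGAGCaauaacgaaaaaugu
mmu-miR-483-3p: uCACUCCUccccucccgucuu

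Of the 10 genes, 7 were at least 2-fold higher in the unsorted pnd7 libraries than at pnd60. Of all genes with enough counts, 9.35% in air and 9.49% in hyperoxia were lower at pnd60 to that extent. Of the genes active on the paternal chromosome, Igf2, a secreted fetal growth factor, had 25.5 CPM (23.1 to 28) in air and 20.7 CPM (18.3 to 23.3) in hyperoxia at pnd7, 5.58 CPM (4.06 to 7.5) in the sorted library, and 6.58 CPM (5.34 to 8.03) and 4.78 CPM (3.78 to 5.95) at pnd60 in air and hyperoxia. Peg3, a zinc-finger protein, had 113 and 118 CPM at pnd7 in air and hyperoxia, 10.7 in sorted cells, and 18.1 and 13.9 CPM at pnd60. Both genes were lower in the sorted library and at pnd60 than in the unsorted pnd7 libraries. Mest, a hydrolase-fold protein of the endoplasmic reticulum, had 82.3 CPM in air and 140.1 CPM (134 to 147) in hyperoxia at pnd7, 1.65 CPM in sorted cells, and 6.1 and 6.05 CPM at pnd60. Plagl1, a zinc-finger transcription factor that regulates other imprinted genes, had 43 and 37 CPM at pnd7, 3.17 in sorted cells, and 11.1 and 11.6 CPM at pnd60. For Mest the pnd7 libraries differed from each other beyond counting error, while the intervals of the pnd60 libraries overlapped. Without the cell with the most Mest counts in each pnd60 library (34 of the 100 in hyperoxia) the pnd60 log2 ratio of hyperoxia over air was -0.51, with an interval below 0.

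Of the genes active on the maternal chromosome, H19 had 56.9 CPM (53.3 to 60.6) and 45.7 CPM (42.1 to 49.4) at pnd7 in air and hyperoxia, against 8 counts in the sorted library, 2 in air pnd60 and 14 in hyperoxia pnd60. Cdkn1c, a cyclin-dependent kinase inhibitor of the CIP/KIP family, had 125 and 118 CPM at pnd7, 4.19 in sorted cells, and 24.3 and 28.8 CPM at pnd60. Grb10, an adaptor that dampens insulin and IGF receptor signalling, had 133 and 118 CPM at pnd7, 6.34 in sorted cells, and 22.5 and 23.6 CPM at pnd60. Igf2r, the receptor that takes IGF2 to the lysosome for degradation, stood apart from the other 3. It had 88.2 and 87.3 CPM at pnd7, 6.34 in sorted cells, and 75.4 CPM (71 to 79.9) and 71.3 CPM (67.3 to 75.5) at pnd60 in air and hyperoxia.

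Dlk1, a transmembrane protein related to Notch ligands, and Meg3, a noncoding RNA, were near the floor. Dlk1 had 7, 11 and 2 counts in air pnd7, hyperoxia pnd7 and the sorted library, and 0 in both pnd60 libraries. Meg3 had 8 and 5 counts in the unsorted pnd7 libraries and 0 in the other 3. Of these, 6 of 7 Dlk1 counts and 6 of 8 Meg3 counts in air pnd7, and 10 of 11 Dlk1 counts in hyperoxia pnd7, lay in type II-like cells, but only 1 of 5 Meg3 counts in hyperoxia pnd7 did. The features hold copies of some genes under a second symbol, among them Meg3_1, with 16, 9 and 1 counts in air pnd7, hyperoxia pnd7 and hyperoxia pnd60, and Dlk1_1, with 1 and 2 counts in the unsorted pnd7 libraries. Reads of a gene and its copy could be split or lost, so the levels of Dlk1, Meg3 and Igf2r (whose copy had 1 count in all) are uncertain to that extent.

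**Figure D1:**
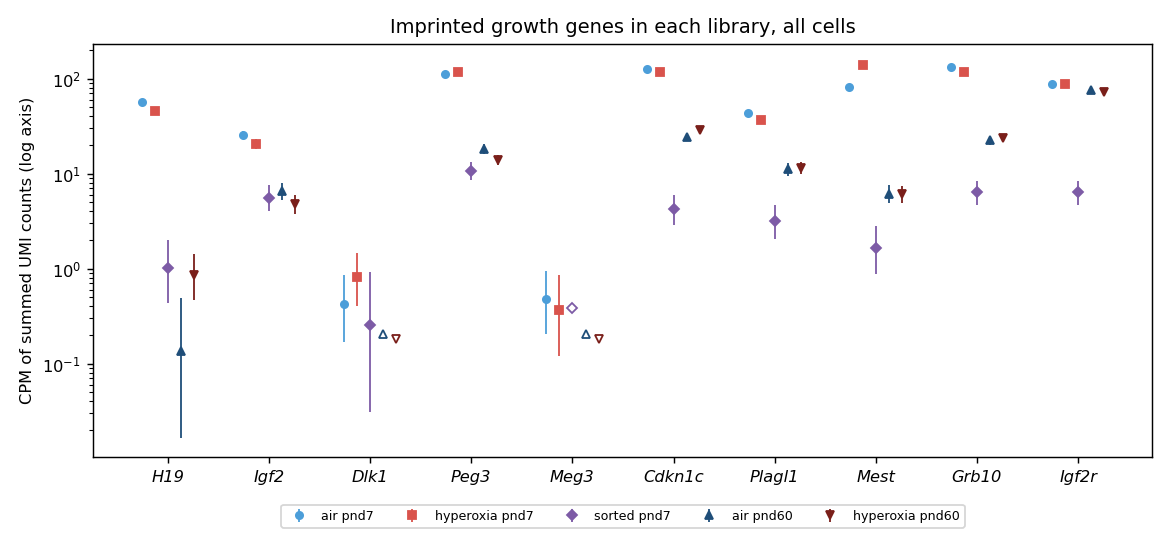
Level of each of the 10 genes in CPM of summed UMI counts (log axis) in each of the 5 libraries, with 95% Poisson intervals for counting error; open symbols mark libraries with 0 counts, drawn at the level that 3 counts would give. For 7 of the genes both unsorted pnd7 libraries lie above both pnd60 libraries by at least 2-fold, and Igf2r lies at 71.3 to 88.2 CPM in all 4. Of all genes with enough counts, 9.35% in air and 9.49% in hyperoxia were at least 2-fold lower at pnd60.

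In air, 7 of the 8 genes with at least 100 counts in both ages together were at least 2-fold lower at pnd60 than at pnd7 in all cells and none was higher by that much, where 9.35% of 13003 genes were lower and 15.1% higher to that extent. In hyperoxia the same counts were 7 and 0 of 8, against 9.49% and 19.1% of 12923 genes. H19 and Igf2 in both exposures, and Mest in air, had fewer than 100 counts at pnd60. They passed the minimum only through pnd7, where they were high. The median log2 ratio of the 8 genes, pnd60 over pnd7, was -2.46 in air and -2.22 in hyperoxia, and that of all genes tested was 0.23 and 0.29. Over all 10 genes, with 0 counts set to 3, the medians were -2.15 and -2.14. H19 had the lowest ratio in air, -8.71 (-11.76 to -6.86), and in hyperoxia, -5.75 (-6.63 to -5.00). Mest was next, at -3.75 (-4.08 to -3.44) in air and -4.53 (-4.84 to -4.24) in hyperoxia. For Peg3 the log2 ratio was -2.64 (-2.83 to -2.45) and -3.08 (-3.28 to -2.88), so that it too was more than 4-fold lower at pnd60 in both exposures. Grb10, Cdkn1c, Igf2 and Plagl1 had log2 ratios between -2.56 and -1.95 in air and between -2.32 and -1.68 in hyperoxia. Igf2r was the exception among the 8, with -0.23 (-0.34 to -0.11) in air and -0.29 (-0.41 to -0.17) in hyperoxia.

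The age difference was also present inside cell classes, where the share of a class in its library does not set the value. The make-up inside a class differed with age. Contractile-like cells were 247 of the 386 mesenchymal-like cells in air pnd7 and 57 of the 360 in air pnd60. In hyperoxia they were 141 of 266 at pnd7 and 52 of 392 at pnd60. The part of this make-up in the mesenchymal-like ratios was not tested. In mesenchymal-like cells, 6 of 8 genes were at least 2-fold lower at pnd60 and none higher in air, where 14.3% of genes were lower and 13.3% higher, and 6 and 0 of 8 in hyperoxia (15.4% and 14.5%). The medians were -1.98 and -1.92 over these 8 genes, and -1.55 and -1.57 over all 10 with 0 counts set to 3. Dlk1 and Meg3, the 2 not tested, had at most 1 count there in any library. In endothelial-like cells 5 of 6 genes in air (11.5% lower among all) and 6 of 8 in hyperoxia (9.19%) were lower, and none was at least 2-fold higher (13.4% and 17.5%). Fibroblast-like cells held 4 lower and 0 higher of 6 genes in each exposure (12.1% and 14.9% lower, 15.5% and 16.3% higher). Contractile-like cells (smooth muscle, pericytes and myofibroblasts) held 4 lower and 1 higher of 8 in air and 5 and 1 of 8 in hyperoxia (19.8% and 23% lower, 12.8% and 13.8% higher). In both exposures H19, Igf2, Cdkn1c, Plagl1 and Mest were below the count minimum at pnd60 in mesenchymal-like cells. So were H19, Peg3, Cdkn1c and Mest in endothelial-like, Cdkn1c, Plagl1 and Mest in fibroblast-like and all 8 genes in contractile-like cells. They passed it only with the counts of pnd7, where most were higher. Peg3 and Grb10 in mesenchymal-like cells reached it at both ages and were at least 2-fold lower at pnd60. The classes were named by the same markers, so the marker levels describe the classes and are no separate check. All 41 mesenchymal markers had counts in the mesenchymal-like cells of every unsorted library, and their summed levels were 13552 to 20075 CPM in mesenchymal-like and 336 to 967 CPM in endothelial-like cells. The summed endothelial markers were 7025 and 6289 CPM in endothelial-like cells at pnd7 and 12124 and 11471 CPM at pnd60 in air and hyperoxia.

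**Figure D2:**
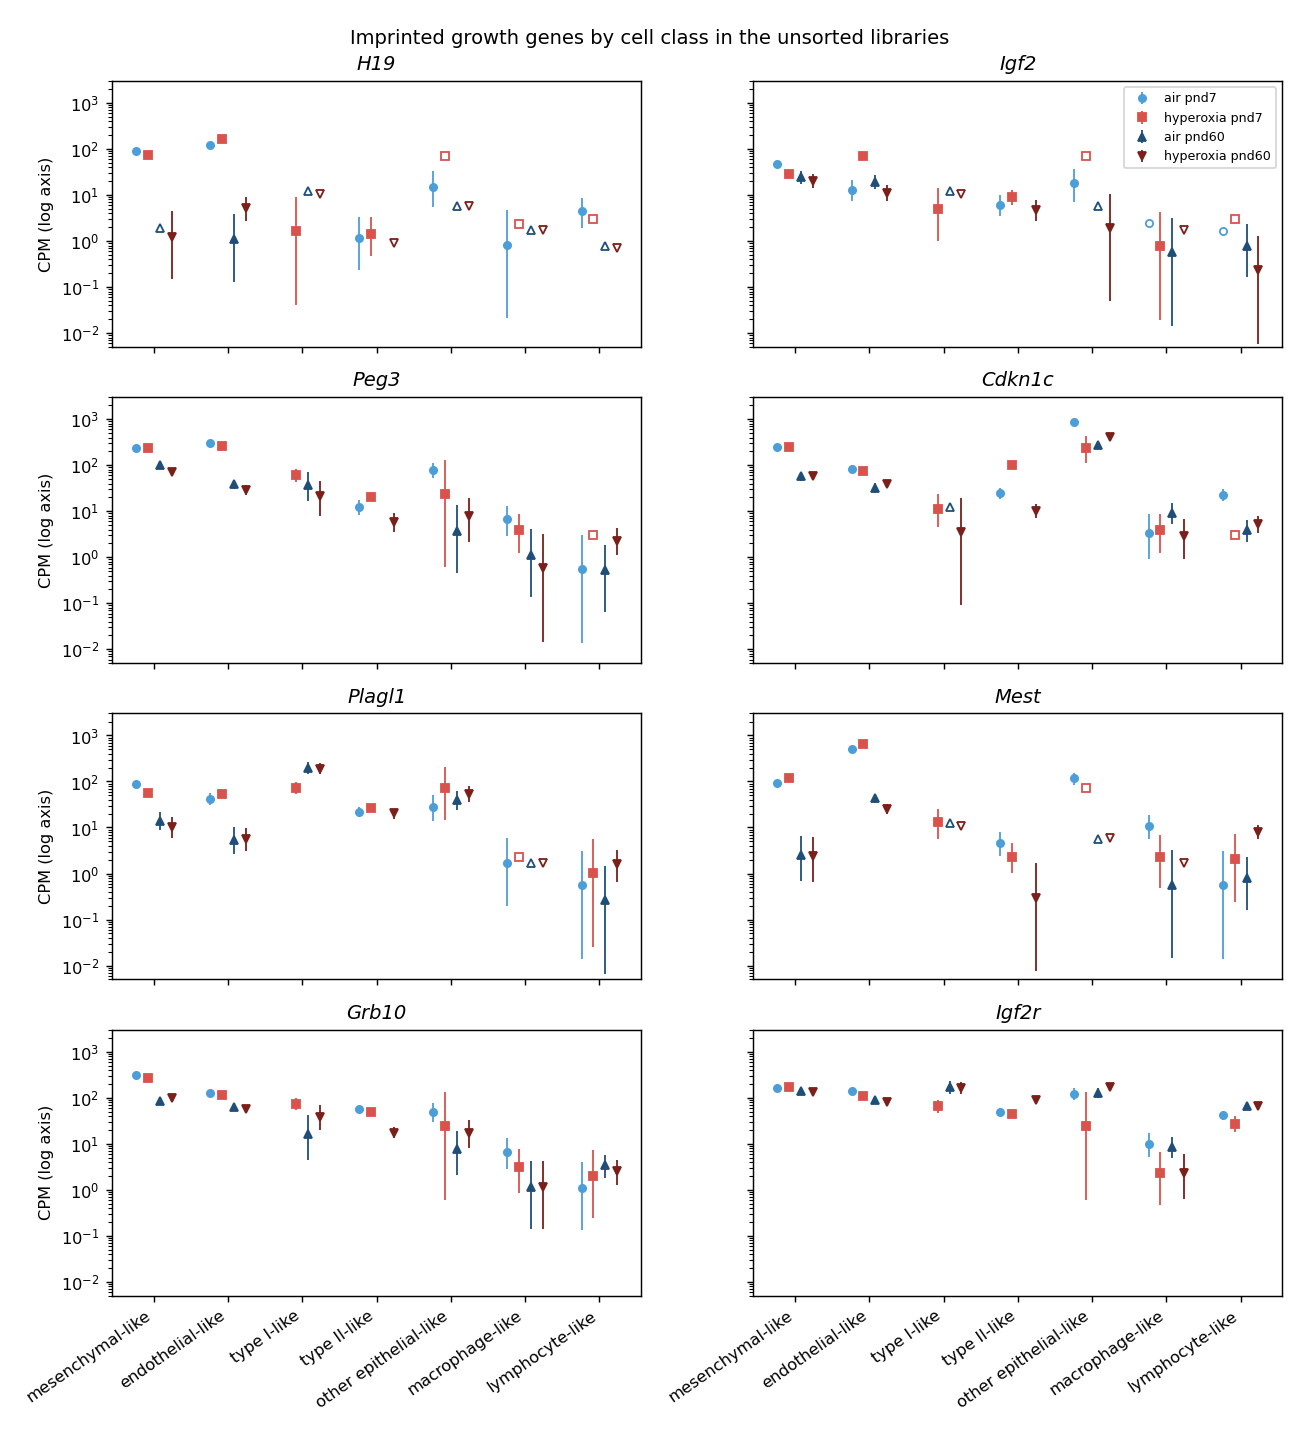
Level in CPM (log axis) of 8 genes in the cell classes of the 4 unsorted libraries, with 95% Poisson intervals; open symbols mark 0 counts, drawn at the level of 3 counts, and a missing symbol means that the library had no cluster of that name. In mesenchymal-like and endothelial-like cells H19, Peg3 and Mest lie lower at pnd60 than at pnd7 in both exposures. Igf2r in mesenchymal-like cells lies between 131 and 167 CPM, with the hyperoxia value lower at pnd60.

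H19 at pnd7 was a transcript of stromal and vascular cells. In air pnd7 it had 124 CPM in endothelial-like and 91.7 CPM in mesenchymal-like cells, and 1.15 in type II-like and 0.832 in macrophage-like cells. A single cell held 65 of the 151 endothelial-like counts, only 10.1% of endothelial-like cells had a count, and the order of endothelial-like and mesenchymal-like cells rested on that cell, with 86 and 378 counts left without the highest cell of each. Within the mesenchyme it lay in contractile-like cells, with 132 and 140.3 CPM in air and hyperoxia pnd7, against 8.19 and 1.07 CPM in fibroblast-like cells. At pnd60 contractile-like cells held 0 counts in both libraries, at least 8.32-fold lower in air and 6.4-fold lower in hyperoxia with the floor of 3 counts per library. When each cell was classed by its own markers, pericytes had 311 and 157 CPM at pnd7 in air and hyperoxia and smooth muscle cells 147 and 119 CPM.

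At pnd7 the highest H19 and Igf2 levels among cells classed by their own markers were in a handful of cells with lymphatic endothelial markers. By their own markers, 9 cells in air pnd7 and 3 in hyperoxia pnd7 were lymphatic, with 1159 and 2069.7 CPM of H19. Igf2 in these cells was 833 and 1209 CPM. These cells held 125 of the 424 Igf2 counts in air and 111 of the 281 in hyperoxia, where the highest cell held 149 of the 620 H19 counts and the highest for Igf2 held 87. In the sorted library 2 such cells held 38 of 44 Igf2 counts, 35 of them in 1 cell. At pnd60 the 12 and 18 lymphatic cells held 29 and 8 Igf2 counts in air and hyperoxia, with 26 of the 29 in 1 cell, and 2 and 0 counts of H19. The lymphatic clusters at pnd60 gave other values in hyperoxia, where the 20 cells held 12 of the library's 14 H19 counts, in 2 cells, and 21 Igf2 counts, while the 12 cells of air pnd60 held 2 and 29.

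Outside the lymphatic cells, the age ratio of Igf2 differed in sign between stromal cells in air. In contractile-like cells it was higher at pnd60, with 32.2 CPM in air and 50.6 CPM in hyperoxia at pnd7 and 111 and 132 CPM at pnd60. The log2 ratio was 1.79 (1.03 to 2.48) in air and 1.38 (0.57 to 2.11) in hyperoxia. In each exposure Igf2 was the 1 of 8 genes tested that was at least 2-fold higher at pnd60 in that class. That count is near the share of all genes, of which 12.8% in air and 13.8% in hyperoxia were higher. The pnd60 values rested on 21 and 18 counts, with at most 3 and 4 in 1 cell. With cells classed by their own markers the ratios were 1.90 (1.12 to 2.60) and 2.04 (1.19 to 2.83). The make-up of the class differed between ages. Cells labelled smooth muscle by their own markers were 55.9% and 55.3% of contractile-like cells at pnd7 and 22.8% and 26.9% at pnd60. In air pnd7 a cluster of 46 cells named smooth muscle had the myofibroblast markers Aspn, Hhip and Fgf18 among its leading genes. At pnd7 the 2 labels were thus not clearly apart, and cells of 1 label need not be alike at both ages. Within own-marker smooth muscle cells Igf2 was 35.3 and 30.6 CPM at pnd7 and 111 and 141 CPM at pnd60, with 7 counts in each pnd60 library. Myofibroblasts had 4.71 and 7.25 CPM against 144 and 139 CPM, again on 7 counts each. Pericytes had 45.4 and 30.8 CPM against 78 and 67.9 CPM, with overlapping intervals.

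In fibroblasts by own markers the log2 age ratio of Igf2 was -1.17 (-2.12 to -0.29) in air and -0.42 (-1.43 to 0.52) in hyperoxia, where the interval includes 0. In fibroblast-like clusters Igf2 was 28.7 CPM at pnd7 and 12.3 CPM at pnd60 in air. In hyperoxia it was 4.28 CPM at pnd7 and 10 CPM at pnd60 there, on 8 and 15 counts. The sign in hyperoxia thus depended on the classing. Adventitial fibroblasts had 148 and 103 CPM at pnd7 and 51 and 33.3 CPM at pnd60, with 19 of the 23 counts in hyperoxia pnd7 from 1 cell, and alveolar fibroblasts had 3.42 to 6.25 CPM in all 4 libraries. Mesothelial cells, the outer covering of the lung, had 429.9 and 272 CPM in the 13 and 7 cells at pnd7 and no count in the 3 and 5 cells at pnd60, too few to compare.

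Mest was a gene of capillary endothelium at pnd7. Aerocyte capillary cells, which face the alveolar gas exchange surface, had 1004 and 1220.2 CPM at pnd7 in air and hyperoxia by their own markers and 131 and 97.9 CPM at pnd60. General capillary cells had 455 and 604 CPM at pnd7 and 22.2 and 35 CPM at pnd60. Of the counts of Mest, 44.2% in air pnd7 and 56.6% in hyperoxia pnd7 lay in endothelial-like cells, which were 6.41% and 15.6% of cells. Pericytes were the other site, with 729.9 and 619 CPM at pnd7 and 0 counts in the 24 and 22 pericytes at pnd60. In hyperoxia pnd60, 34 of the 100 counts of Mest lay in 1 cell that fell in a T cell-like cluster. By its own markers this cell counted as capillary, so the own-marker capillary levels of hyperoxia pnd60 include it. In endothelial-like clusters, which leave it out, the pnd60 log2 ratio of hyperoxia over air was -0.77.

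Peg3 at pnd7 was high in both fibroblasts and general capillary cells. By own markers fibroblasts had 446 and 353 CPM at pnd7 and 105 and 70.1 CPM at pnd60. The adventitial ones were higher, at 1024 and 977 CPM at pnd7 against 353 and 273 CPM in alveolar fibroblasts. General capillary cells had 352 and 350.2 CPM at pnd7 and 52.2 and 35 CPM at pnd60. In contractile cells the age ratio of Peg3 was -0.38 (-1.21 to 0.33) in air, with an interval that includes 0, and -1.62 (-3.08 to -0.47) in hyperoxia.

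The highest Plagl1 levels lay in adventitial fibroblasts at pnd7 and in type I-like cells at pnd60. Adventitial fibroblasts had 196 and 197 CPM at pnd7 and 11.3 and 16.6 CPM at pnd60. Type I-like cells, the thin cells that line the alveoli, had 73.5 CPM in hyperoxia pnd7 and 197 and 191 CPM in air and hyperoxia pnd60. The log2 age ratio there was 1.38 (0.78 to 1.98) in hyperoxia, opposite in sign to that in mesenchymal-like (-2.45) and endothelial-like (-3.25) cells. It rested on 45 and 54 counts, just under the minimum of 100 for a call, and air pnd7 had no cluster named type I-like. An unnamed cluster of 211 cells in air pnd7 had the type I markers Akap5, Rtkn2 and Hopx among its leading genes. By their own markers 87.7% of its cells were type II.

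Cdkn1c was highest in airway and large-vessel cells and its age ratio differed between stromal cells. By own markers ciliated cells had 1378 CPM in the 20 cells of air pnd7 and 2728 CPM in the 6 of hyperoxia pnd7, and 402 and 412 CPM at pnd60. Large-vessel endothelium had 1061 and 867 CPM at pnd7, in 7 and 13 cells of which the highest held 33 of 43 and 46 of 67 counts, and 315 and 284 CPM at pnd60. In fibroblasts Cdkn1c was 384 and 309 CPM at pnd7 and 42.1 and 51.1 CPM at pnd60, a log2 ratio of -3.19 (-3.61 to -2.79) in air. In contractile cells the ratio was -0.11 (-0.68 to 0.41) in air and 0.18 (-0.41 to 0.72) in hyperoxia. Inside that group cells labelled smooth muscle had 161 and 151 CPM at pnd7 and 47.5 and 20.2 CPM at pnd60, on 3 and 1 counts. That label was not clearly apart from myofibroblasts at pnd7. Pericytes had 224 and 191 CPM at pnd7 against 338 and 373 CPM at pnd60.

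Grb10 was higher in contractile cells than in fibroblasts at pnd7, and in hyperoxia pnd60 the order was the other way. Own-marker contractile cells had 373 and 343 CPM at pnd7 and 53 and 31.5 CPM at pnd60. Fibroblasts had 172 and 192 CPM at pnd7 and 87.2 and 109 CPM at pnd60. In aerocyte capillary cells by own markers Grb10 lay between 69.1 and 74.6 CPM in the 4 unsorted libraries, while Mest in the same cells was lower at pnd60. In aerocyte capillary-like clusters Grb10 ranged more widely on few counts. It was 97.6 CPM (39.2 to 201) in air pnd7 on 7 counts and 51.2 CPM (23.4 to 97.2) in hyperoxia pnd7 on 9. At pnd60 it was 65.7 and 75 CPM there in air and hyperoxia.

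Igf2r was present in stromal, vascular, epithelial and lymphoid cells. At pnd7 in air it had 161 CPM in mesenchymal-like, 136 in endothelial-like, 49.5 in type II-like and 41.3 CPM in lymphocyte-like cells, and the intervals of the first 2 overlapped. Macrophage-like cells had 2.3 to 9.98 CPM in the unsorted libraries. The log2 age ratio in mesenchymal-like cells was -0.17 (-0.39 to 0.05) in air. Without the highest cell of each library it was -0.35 (-0.59 to -0.12) there in hyperoxia. Computed that way it was -0.75 (-1.02 to -0.48) in air and -0.39 (-0.67 to -0.12) in hyperoxia in fibroblast-like cells. In endothelial-like cells it was -0.57 (-0.90 to -0.24) and -0.47 (-0.78 to -0.16). In contractile-like cells it was 0.36 (-0.23 to 0.90) and 0.10 (-0.57 to 0.69). In hyperoxia, type II-like cells had 43.5 CPM at pnd7 and 87.9 CPM at pnd60, a log2 ratio of 1.01 (0.73 to 1.31), the only one of 4 genes tested that was 2-fold higher, with 2 lower (12.7% of all genes higher, 8.3% lower). Igf2r in type I-like cells was 65.3 and 163 CPM at the same ages. Air pnd60 had no cluster that met the naming rule for type II-like cells. Its largest unnamed cluster held 458 cells, of which 97.4% were type II by their own markers. Among lymphocyte-like cells at pnd60, NK cell-like clusters had 144 and 107 CPM in air and hyperoxia, T cell-like clusters 91.9 and 109 CPM and B cell-like clusters 27.6 and 26.3 CPM.

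**Figure D3:**
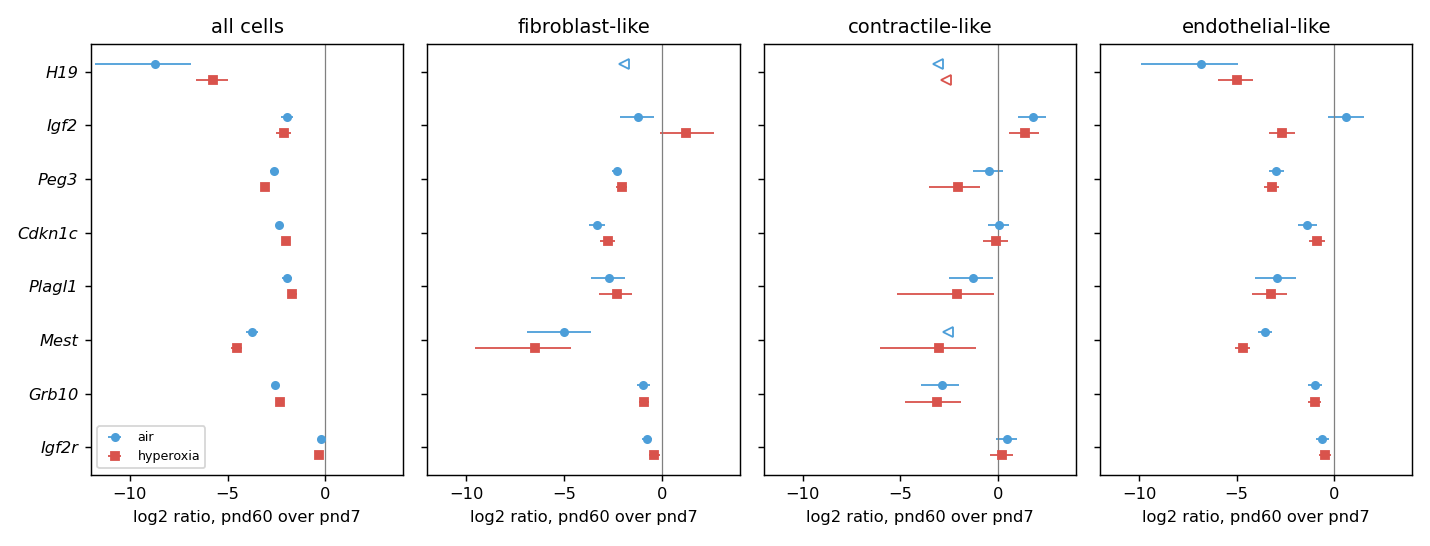
Log2 ratio of CPM at pnd60 over pnd7 for 8 genes in all cells and in 3 groups of clusters, in air and in hyperoxia, with 95% intervals for counting error; open triangles mark 0 counts at pnd60 and are upper bounds from the floor of 3 counts. Most points lie left of 0, Igf2 lies right of 0 in contractile-like cells in both exposures, and Igf2r in all cells lies near 0.

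Lymphocyte-like cells served as the cells expected to lack most of the genes. With each cell thinned to 1000 counts, the share of mesenchymal-like cells with at least 1 count in air was 21.5% at pnd7 and 7.8% at pnd60 for Peg3, against 62.4% and 27.8% before thinning. In lymphocyte-like cells it was 0% at pnd7 and 0.104% at pnd60. For Cdkn1c the mesenchymal-like share was 22% and 5.57% and the lymphocyte-like share 2.35% and 0.418%. For Mest in endothelial-like cells it was 33.6% and 2.3%, against 0% and 0.0522% in lymphocyte-like cells (0 of 298 cells at pnd7, which allows a share of up to 1.23% by the exact interval), and before thinning it was 74.3% and 6.92%. Median counts per cell before thinning were 11264 and 3692 in mesenchymal-like cells and 4848 and 1739 in lymphocyte-like cells in air, and thinning left out 0 and 1 mesenchymal-like, 2 and 27 endothelial-like and 0 and 3 lymphocyte-like cells under 1000 counts. The shares of Peg3 and Cdkn1c in mesenchymal-like cells and of Mest in endothelial-like cells were higher at pnd7 than at pnd60 with and without thinning. The 42 Cdkn1c counts of lymphocyte-like cells in air pnd7 lay in T cell-like clusters for 41 of them, 1 of which was led by the mast cell genes Mcpt4, Tpsb2 and Cpa3.

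**Figure D4:**
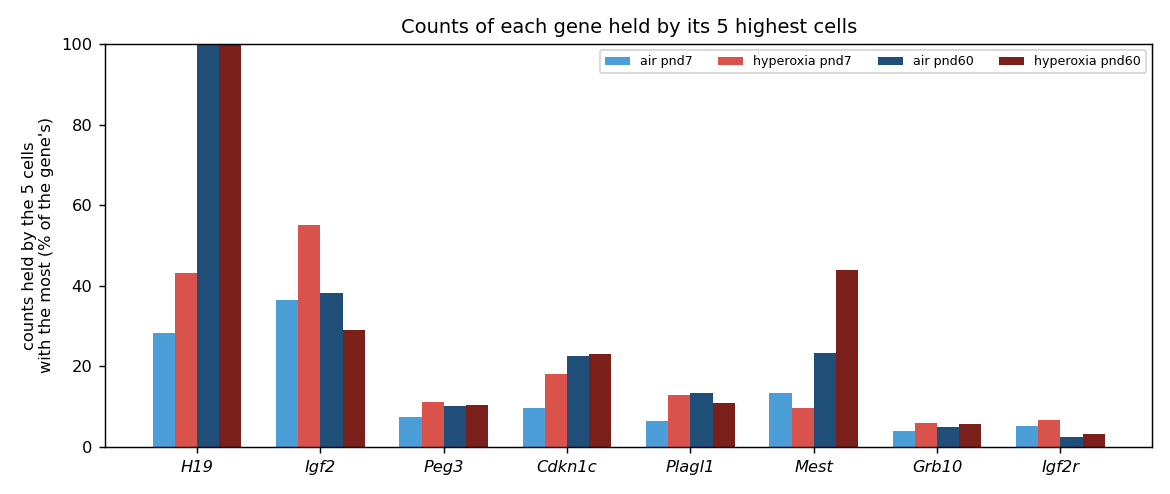
Percent of each gene's counts in a library that came from the 5 cells with the most counts of it, for 8 genes in the 4 unsorted libraries. Bars for H19 reach 100 at pnd60, where the counts were 2 and 14, Igf2 ranges from 29.1% to 55.2%, and Grb10 and Igf2r stay at or below 6.58%.

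At pnd7, none of the 8 genes tested differed by at least 2-fold between hyperoxia and air in all cells, where 0.802% of 12591 genes were lower and 0.183% higher. Mest was higher in hyperoxia, with a log2 ratio of 0.77 (0.67 to 0.87). The endothelial-like share of cells was 6.41% in air and 15.6% in hyperoxia. Mest was also higher within endothelial-like cells, 0.39 (0.24 to 0.53), and within mesenchymal-like cells, 0.38 (0.19 to 0.58). With cells classed by own markers these ratios were 0.55 (0.41 to 0.69) and 0.44 (0.26 to 0.62). In aerocyte capillary-like cells the Mest ratio was 0.17, with an interval that includes 0. In own-marker pericytes the Mest level given above was lower in hyperoxia pnd7 than in air pnd7. Own-marker pericytes were 10.5% of contractile-like cells in air pnd7 and 19.1% in hyperoxia pnd7. The part of this make-up in the mesenchymal-like Mest ratio was not tested. H19 was lower in all cells, -0.32 (-0.47 to -0.17), as were Igf2, -0.30 (-0.52 to -0.08), Plagl1, -0.22 (-0.39 to -0.05), and Grb10, -0.17 (-0.27 to -0.08). Plagl1 was lower in mesenchymal-like cells, -0.66 (-0.90 to -0.43), and by own markers in contractile cells, -0.63 (-0.93 to -0.33). In endothelial cells by own markers the ratio of Plagl1 was 0.45 (-0.05 to 0.97), an interval that includes 0. Igf2 was likewise lower in mesenchymal-like cells, -0.66, and by own markers, -0.50 (-0.84 to -0.17). A mesothelial cluster of 13 cells held 75 of the 212 mesenchymal-like Igf2 counts in air, and hyperoxia had no such cluster. In contractile-like cells Igf2 was higher in hyperoxia, at 50.6 against 32.2 CPM, and 0.72 (0.26 to 1.18) without the highest cell of each library. By own markers 7 of those cells in hyperoxia were mesothelial. The intervals of Peg3, Cdkn1c and Igf2r in all cells included 0.

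Within classes at pnd7, none of 8 genes in mesenchymal-like (0.913% of genes lower, 1.14% higher), none of 6 in fibroblast-like (0.707% and 1.38%) and none of 8 in contractile-like cells (0.43% and 1.41%) differed by 2-fold. Several class values at pnd7 turned on which cluster a few cells fell in. In endothelial-like clusters Igf2 had 16 counts in air against 118 in hyperoxia. The log2 ratio was 2.44 (1.68 to 3.29), the only one of 8 genes at least 2-fold higher there (0.537% of all genes higher, 0.384% lower), with 87 of the 118 in 1 cell. With cells classed by own markers, which puts lymphatic cells of both libraries in the class, the ratio was -0.48 (-0.85 to -0.12), opposite in sign. The summed type II markers in endothelial-like cells were 4715 CPM in air and 365 CPM in hyperoxia, and their part in these ratios was not tested. In type II-like cells Cdkn1c had 64 counts in air against 355 in hyperoxia, 2.07 (1.68 to 2.48), the only one of 5 genes at least 2-fold higher (3.74% of all genes higher, 0.135% lower), and the highest cell held 28.5% of the 355. The 6 ciliated cells by own markers in hyperoxia pnd7 held 245 counts of Cdkn1c, with 41.2% of them in their highest cell. In fibroblast-like clusters Igf2 had 42 counts in air against 8 in hyperoxia, and by own markers 43 against 29, with a log2 ratio of -0.81 (-1.54 to -0.10). Peg3 was lower in fibroblast-like cells, -0.72 (-0.88 to -0.56), and higher in contractile-like cells, 0.64 (0.43 to 0.85). By own markers the same ratios were -0.34 (-0.49 to -0.19) and 0.06 (-0.18 to 0.30).

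At pnd60, after recovery in room air, 0 of 7 genes tested differed by 2-fold between hyperoxia and air in all cells (0.248% of 12928 genes lower, 0.271% higher). Peg3 was lower in hyperoxia, -0.38 (-0.64 to -0.12), also in mesenchymal-like cells, -0.50 (-0.86 to -0.15). Igf2 was lower in all cells, -0.46 (-0.91 to -0.02), but 26 of the 97 counts in air lay in 1 lymphatic cell, and in mesenchymal-like cells the ratio was -0.26 (-0.98 to 0.45). Cdkn1c was slightly higher, 0.24 (0.04 to 0.44), while in mesenchymal-like cells its interval included 0. Mest was lower in endothelial-like clusters, -0.77 (-1.29 to -0.26), and -0.03 (-0.48 to 0.43) by own markers, which counts the cell with 34 Mest counts as capillary. In classes, none of 4 genes in mesenchymal-like (0.56% of genes lower, 0.339% higher), none of 5 in endothelial-like (0.129% and 0.546%) and none of 4 in fibroblast-like cells (0.577% and 0.409%) differed by 2-fold. H19 had 14 counts in 4 cells in hyperoxia and 2 counts in 1 cell in air. The median over all 10 genes, with 0 counts set to 3, was -0.13 at pnd7 and -0.05 at pnd60 in all cells. In mesenchymal-like cells it was -0.24 and -0.10. There Dlk1 and Meg3 had 0 counts in air pnd7 and 1 each in hyperoxia pnd7, so the floor alone put their ratios below 0. At pnd60 both had 0 counts in both libraries. Over the genes tested the mesenchymal-like medians were -0.11 at pnd7 (8 genes) and -0.06 at pnd60 (4 genes).

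**Figure D5:**
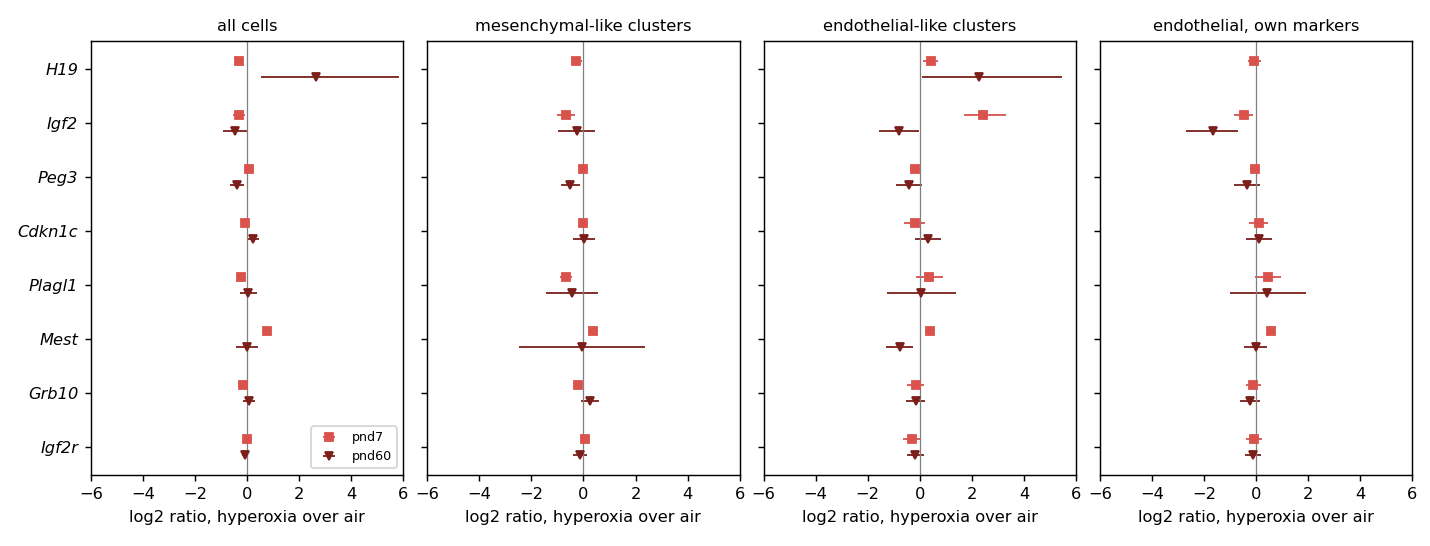
Log2 ratio of CPM in hyperoxia over air at pnd7 and at pnd60 for 8 genes in all cells, in 2 classes of clusters and in endothelial cells by own markers, with 95% intervals for counting error; genes with 0 counts in a library are not drawn. Mest at pnd7 lies right of 0 in all 4 panels, and Igf2 at pnd7 lies right of 0 in endothelial-like clusters and left of 0 by own markers.

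In the sorted library, 8 of the 8 genes tested were at least 2-fold lower than in unsorted hyperoxia pnd7, where 36.4% of 11340 genes were lower and 8.17% higher. The median log2 ratio of the 8 was -4.00, and that of all genes -0.55. None of the 8 reached the count minimum in the sorted library, where Peg3 had the most counts, 84. They passed it only through the unsorted library, where they were high. Mest had -6.41 (-7.32 to -5.63), H19 -5.49 (-6.71 to -4.50) and Cdkn1c -4.81 (-5.36 to -4.32). Of the sorted cells 76.5% were macrophage-like, against 7.62% in unsorted hyperoxia pnd7, so a lower level per cell and another make-up of cells cannot be told apart. Within the unsorted hyperoxia library, macrophage-like clusters had 0 to 3.83 CPM of the 10 genes. The counts left in the sorted library lay mostly in its unnamed clusters, with 79 of 84 counts of Peg3, 40 of 50 of Grb10, 33 of 50 of Igf2r, 25 of 33 of Cdkn1c and 24 of 25 of Plagl1. Igf2 differed, with 38 of its 44 counts in 2 cells with lymphatic markers that fell in macrophage-like clusters.

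Other genes of the same pathways were taken from lists chosen for their function. Their counts in all cells stand beside the shares of all genes given above, 9.35% lower and 15.1% higher at pnd60 in air and 9.49% and 19.1% in hyperoxia. Of 30 other imprinted genes, 17 had enough counts in air, and 6 were at least 2-fold lower and 1 higher at pnd60, with a median log2 ratio of -0.51. Rtl1, a retrotransposon-derived gene of the Dlk1-Meg3 region, had -5.08 and Nnat, a small membrane protein, -2.89, whereas Peg13, a noncoding RNA, had 2.14. In hyperoxia the counts were 5 lower and 1 higher of 19 (median -0.22). Of the IGF axis, 6 were lower and 2 higher of 13 in air (median -0.999), with -4.13 for Pappa2, a protease of IGF-binding proteins, -2.01 for Igf1, the postnatal growth factor, and 3.31 for Igfbp3, an IGF-binding protein. In hyperoxia they were 6 and 3 of 13 (median -0.75). Inside stromal classes the IGF axis had the opposite median sign. In mesenchymal-like cells in air 3 were lower and 4 higher of 12 (0.18), where 14.3% of all genes were lower and 13.3% higher. In air they were 2 and 5 of 10 in fibroblast-like cells (0.67, all genes 12.1% and 15.5%). In contractile-like cells in air they were 1 and 5 of 11 (0.87, all genes 19.8% and 12.8%). In mesenchymal-like cells in hyperoxia they were 2 and 4 of 12 (0.25, all genes 15.4% and 14.5%). Of genes of fetal growth, 5 of 8 were lower in air and 4 of 8 in hyperoxia, and none was 2-fold higher, with Igf2bp3, an RNA-binding protein that binds Igf2 mRNA, at -4.03 and -4.51.

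Most cell cycle and matrix genes were also lower at pnd60 in all cells. All 15 cell cycle genes were at least 2-fold lower at pnd60 in both exposures (medians -1.94 and -2.62), among them Cdk1, a mitotic kinase, at -2.78 and -3.18. Of 14 matrix genes, 10 were lower in each exposure (medians -2.32 and -1.88), with elastin, Eln, at -3.90 and -2.92. Inside mesenchymal-like cells 6 matrix genes were lower and 1 higher of 14 in air (median -0.90), where 14.3% of all genes were lower and 13.3% higher. In hyperoxia they were 4 and 2 of 14 there (-0.47, all genes 15.4% and 14.5%). In fibroblast-like cells in hyperoxia they were 2 and 1 of 13 (-0.17, all genes 14.9% and 16.3%), so the lower count was near that share. Cdkn1a and Cdkn1b, the other CIP/KIP inhibitors beside Cdkn1c, differed from it in sign. Cdkn1a had 2.00 in air and 0.85 in hyperoxia, and Cdkn1b 0.88 and 1.21. Between hyperoxia and air at pnd7, 1 of 19 other imprinted genes (Peg10, -1.04) and 1 of 13 IGF axis genes (Igfbp6, -1.32) were 2-fold lower in all cells and none higher. Of all genes 0.802% were lower and 0.183% higher. No gene of the cell cycle, matrix, fetal growth or CIP/KIP lists differed by 2-fold, and the medians of those 4 ranged from -0.28 (matrix) to 0.47 (cell cycle). At pnd60 Airn, a noncoding RNA antisense to Igf2r, was the only listed gene past 2-fold in all cells, at 1.22 (0.248% of all genes lower, 0.271% higher). Other listed genes passed 2-fold inside endothelial-like and contractile-like cells. In the sorted library 9 of 16 other imprinted, 11 of 13 IGF axis, 5 of 7 fetal growth, 6 of 15 cell cycle and 14 of 14 matrix genes were lower than in unsorted hyperoxia pnd7, where 36.4% of all genes were lower and the cell cycle share was near that background, and 1 IGF axis gene and 1 of 2 CIP/KIP genes were higher, the latter Cdkn1a at 2.37. In mesenchymal-like clusters all 15 cell cycle genes were higher in hyperoxia pnd7 (median 2.74, with 1.14% of all genes higher), and with cells classed by own markers 0 of 15 were (median 0.18). The part of this in the mesenchymal-like ratios at pnd7 was not tested.

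The patterns of the 8 genes with counts across cell groups were compared over 54 groups of at least 20 cells, each of 1 type in 1 library, by Pearson's r of log2(CPM + 10). The groups share libraries and depth, so r is a description only. The 3 genes outside the 10 with the pattern most like H19 were Mex3a, Grp and Lancl3 (r = 0.80, 0.78 and 0.78). For Igf2 they were Angpt2, Cd109 and Zfp423 (0.85, 0.85 and 0.81). Peg3 was most like Col5a2, a collagen gene, Ndn, itself an imprinted gene, and Macroh2a2 (0.88, 0.88 and 0.87). Cdkn1c was most like Enah, Obsl1 and Gpx8 (0.84, 0.83 and 0.83), and Plagl1 like Tead1, Ltbp3 and Ccdc112 (0.88, 0.85 and 0.85). Mest was most like Gm10638, Fam171a2 and 2810025M15Rik (0.84, 0.83 and 0.83). Grb10 had the closest partners, LOC102631979, Serpinh1, a collagen chaperone, and Lamc1, a laminin chain (0.96, 0.92 and 0.91), and Igf2r the most distant, Bcl9l, Plekha5 and Pja1 (0.79, 0.78 and 0.78). H19 and Igf2, neighbours on the chromosome, had r = 0.59 with each other.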

How the data were processed

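Mouse lung cells in 5 libraries (10x Chromium 3′ v3.1) were analysed from the raw UMI counts per gene and barcode deposited by the authors, written by Cell Ranger 3.1.0 per the file headers. The submitters' processing notes name Cell Ranger, Seurat 3.2.1 and mm10. The unsorted libraries came from an earlier dataset of the same group. Of the features, 2346 carry a suffix that marks a copy of a symbol.

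Barcodes outside 700 to 8000 genes or with 5% or more mitochondrial counts were left out. This removed 1914 and 1387 barcodes of few genes from the air and hyperoxia pnd7 libraries, whose hemoglobin counts were 39.2% and 37.6% before and 3.38% and 2.22% after. Scrublet called 1 to 4 doublets in each pnd7 library, too few to be informative, and 138 and 156 at pnd60, which were kept. Each library was clustered apart (scanpy 1.11.5, 2000 variable genes without the 10 genes, 30 components, 15 neighbours, Leiden). A cluster was named where at least 3 fixed markers were raised 2-fold and at least 60% of its cells had that class by their own markers, and both thresholds were chosen with the clusters in view. The authors' cell labels were not used here. In a second classing, each cell took the type whose markers summed highest in it.

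Counts were summed per library and class and scaled to CPM with exact Poisson intervals. Log2 ratios have binomial intervals, shares of cells exact Clopper-Pearson ones, and a group at 0 was set to a floor of 3 counts per library. Intervals and floors are at 95% and cover counting error only. A gene counted as tested with at least 100 counts in both groups together, and as lower or higher at a log2 ratio of 1 in size. This is a size rule, since 1 library per group allows no test of significance. A gene could pass the count minimum only through the group in which it was high. The text names the 10 genes, genes from the 2 highest and 2 lowest of each list, and the 3 genes of most similar pattern. The 10 genes and the lists were chosen with earlier results of these data known. The log2 ratios and their intervals were tested on simulated counts with Poisson error only, without single cells that hold many counts. The 2-fold calls were not tested. Python 3.11.15, numpy 2.4.6, scipy 1.17.1 and pandas 2.3.3 were used.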

Additional observations from a re-analysis of the deposited data

Results flagged for a closer look

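Some differences between hyperoxia and air had opposite signs in a pair of cell classes or ages, and none of these differences was tested. At pnd7 the log2 ratio of H19 was -0.27 in mesenchymal-like and 0.42 in endothelial-like cells, a difference of -0.69. Contractile-like cells held 391 of the 421 mesenchymal-like H19 counts in air, and there H19 had 132 CPM in air and 140 CPM in hyperoxia. They were 247 of the 386 mesenchymal-like cells in air and 141 of the 266 in hyperoxia. The part of this make-up in the ratio of -0.27 was not tested. Without the cell with the most H19 counts in each library the endothelial-like ratio was 0.11 (-0.30 to 0.53), an interval that includes 0. For Igf2 the log2 ratio at pnd7 was -0.66 in mesenchymal-like and 2.44 in endothelial-like cells, a difference of -3.10. Of the 118 endothelial-like counts in hyperoxia, 87 came from 1 cell. Inside the mesenchyme Igf2 was higher in hyperoxia in contractile-like cells, at 50.6 against 32.2 CPM. Peg3 had -0.72 in fibroblast-like and 0.64 in contractile-like cells, a difference of -1.35. Igf2r had -0.53 in fibroblast-like and 0.39 in contractile-like cells, a difference of -0.93, and the signs were the same with cells classed by their own markers (-0.48 and 0.55). In endothelial-like cells Mest had 0.39 at pnd7 and -0.77 at pnd60, a difference of 1.16, and -0.03 at pnd60 with cells classed by own markers.

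Peg3os, annotated antisense to Peg3 and outside the comparisons, had 4 counts in hyperoxia pnd7 and 1 in air pnd7.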

How the results depend on the processing

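The median log2 ratio of the 10 genes was recomputed under 11 alternatives in all cells and 15 in mesenchymal-like cells, of which 2 (leaving out the cell with the most counts of each gene, and adding the copies of a gene to it) were chosen after seeing the data. The classing of endothelial, fibroblast and contractile cells by their own markers was also added then. Each recomputed median was set against a band from the median lower to the median upper counting limit of the 10 genes. This band is about as wide as the error of a single gene and is no interval for the median. Of 115 recomputed medians of the 9 comparisons, 110 lay within the band, and 5 moved beyond it. With all barcodes as deposited, red cells included, the medians were -1.55 (air, pnd60 over pnd7), -1.44 (hyperoxia, pnd60 over pnd7), 0.0558 (hyperoxia over air at pnd7, against -0.13) and -3.15 (sorted over unsorted). With median-of-ratios size factors the sorted median was -3.13. For these 5 the cause was not tested. Of 1294 recomputed ratios of single genes, 1125 lay within the counting interval of the gene's first value and 165 moved. The other 4, of ratios at least 2-fold in size, changed sign. They were H19 at pnd60 in all cells (-0.00853) and in endothelial-like cells (-0.82) when the CPM of each cell was averaged. The others were Igf2 in endothelial-like cells at pnd7 with cells classed by own markers (-0.48) and with 1 joint clustering of all libraries (-1.26). Thinning to 1000 counts moved 56 of the single ratios, and all barcodes 33. No paired analysis was possible because there was 1 library per condition, so no replicate could be left out either. Depth limits Dlk1 and Meg3, with at most 11 counts in any library, and H19 at pnd60.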

Other observations

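Unnamed clusters, which entered no class comparison, also held counts of the 10 genes. In hyperoxia pnd7 the 227 cells of unnamed clusters had 314 CPM of Mest and 81.4 CPM of Peg3, and in air pnd7 the 990 such cells had 65.6 and 77.3 CPM and 85.2 CPM of H19. At pnd60 they had at most 4.9 CPM of Peg3 and 0.3 CPM of Mest. In air pnd60, 458 of the 567 unnamed cells formed 1 cluster, 97.4% type II by their own markers. The unnamed clusters of different libraries therefore need not hold the same kinds of cells.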
